A study of Fundulus heteroclitus with 4 samples.

Results

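Embryos of Atlantic killifish (Fundulus heteroclitus) from New Bedford Harbor (NBH) were compared at 12 days post-fertilisation (dpf) with a pool of NBH embryos of 1 to 15 dpf, by counting the reads of their mature microRNAs (miRNAs). Each stage was 1 library, so the comparison used 2 of the 4 libraries of the study. The other 2 held the same stages from Scorton Creek (SC). They entered the filter on counts and the scaling, and their values are given only where they are set side by side. All embryos were F1, from gametes of adults of their population fertilised in vitro, and were kept in full-strength sea water at 22 °C. The pool includes 12 dpf itself. How many embryos each library held, and how much each day gave to the pool, were not given in the sources used here. NBH at 12 dpf had 2299850 counts and the NBH pool 1780462. With 1 library a side there is no replicate check and no p-value, and every interval below is a 95% counting interval that covers counting error only.

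miRNAs are short RNAs that guide silencing complexes to partly matching messenger RNAs, mainly through the seed, bases 2 to 8 of the mature molecule, and so lower the amount and translation of those messengers. In fish embryos miR-430, made when the embryo's own genome first becomes active, helps clear messengers laid down by the mother, and tissue miRNAs such as those of muscle and brain appear later as organs differentiate. NBH is a harbour with a long history of contamination by polychlorinated biphenyls, and its killifish are known for embryos that tolerate dioxin-like compounds. SC is commonly used as a less contaminated site for comparison.

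Of 217 entries listed in the 4 tables, 192 had at least 10 counts in at least 2 libraries and are the miRNAs measured here. Levels are counts per 1000000 (CPM) after scaling by TMM (the trimmed mean of M-values), and a ratio is log2 of the 12 dpf level over the pool level. Counts are given unscaled; the ratio allows for the scaled library sizes of 2236866 at 12 dpf and 1635305 in the pool, so equal counts give a ratio below 0. A miRNA is called higher or lower at 12 dpf when the ratio is 2-fold or more and its interval excludes equality. Each difference was then checked in identical reads, those that match the listed sequence exactly, which made up 57.1% of the counts at 12 dpf and 56.2% in the pool. The listed sequences come from zebrafish, pufferfish (fugu and Tetraodon) and medaka, not from killifish, so an entry with few identical reads is known by name only through reads that differ from it. Of the 160 miRNAs with at least 100 counts in 1 of the libraries, 56 at 12 dpf and 56 in the pool had under 10% identical reads.

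The sequences that the comparison turns on are printed as listed, 5′ to 3′ with T for U, with the seed in capitals. The first are the 5 miRNAs with the widest margin at 12 dpf and miR-216a, a close relative of miR-216b, whose seed is different:
miR-216b: tAATCTCTgcaggcaactgtga
miR-216a (Tetraodon): aAATCTCAgctggcaactgtga
miR-21: tAGCTTATcagactggtgttggc
miR-124: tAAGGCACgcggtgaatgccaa
miR-210: cTGTGCGTgtgacagcggctaa
miR-93: aAAAGTGCtgtttgtgcaggta

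miR-93 shares its seed with miR-17a, miR-20a and miR-20b. The seed of miR-430 lies 1 base further along the same letters, and the calls within these 2 seeds went in opposite directions:
miR-20a: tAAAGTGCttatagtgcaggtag
miR-20b: cAAAGTGCtcacagtgcaggtag
miR-17a: cAAAGTGCttacagtgcaggta
miR-430a (zebrafish): tAAGTGCTatttgttggggtag
miR-430b (medaka): tAAGTGCTacatgttggggtaa
miR-430c (medaka): tAAGTGCTacatgttggggtag
miR-430d: tAAGTGCTtctctttggggttg

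The muscle miRNAs miR-206 and miR-1 have 1 seed between them:
miR-206: tGGAATGTaaggaagtgtgtgg
miR-1: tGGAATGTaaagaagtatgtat

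The miR-27 and let-7 entries are shown because members with the same seed, a few bases apart, had very different ratios:
miR-27a: tTCACAGTggctaagttccgct
miR-27b: tTCACAGTggctaagttctgca
miR-27c: tTCACAGTggttaagttctgc
miR-27e: tTCACAGTggctaagttcagtg
let-7a: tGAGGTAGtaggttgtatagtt
let-7d: tGAGGTAGttggttgtatggtt
let-7h: tGAGGTAGtaagttgtgttgtt

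Most miRNAs stood at a like level in the 2 libraries. Of the 192 measured, 139 (72.4%) lay within 2-fold, the median ratio was 0.06 and the middle of the distribution ran from -0.41 to 0.69 (quartiles). At 12 dpf 27 miRNAs (14.1%) were called higher and 23 (12.0%) lower, together 26.0%. The split depended on the scaling: size factors of DESeq2 shifted the median by -0.11 and gave 23 higher and 28 lower, and total counts 32 higher and 19 lower. A ratio of 4-fold or more was found for 11 higher and 6 lower. The called miRNAs were a small part of the RNA: those called higher held 9.06% of all counts at 12 dpf but 1.85% of the pool's. Those called lower held 6.63% at 12 dpf and 14.6% of the pool's.

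**Figure D1:**
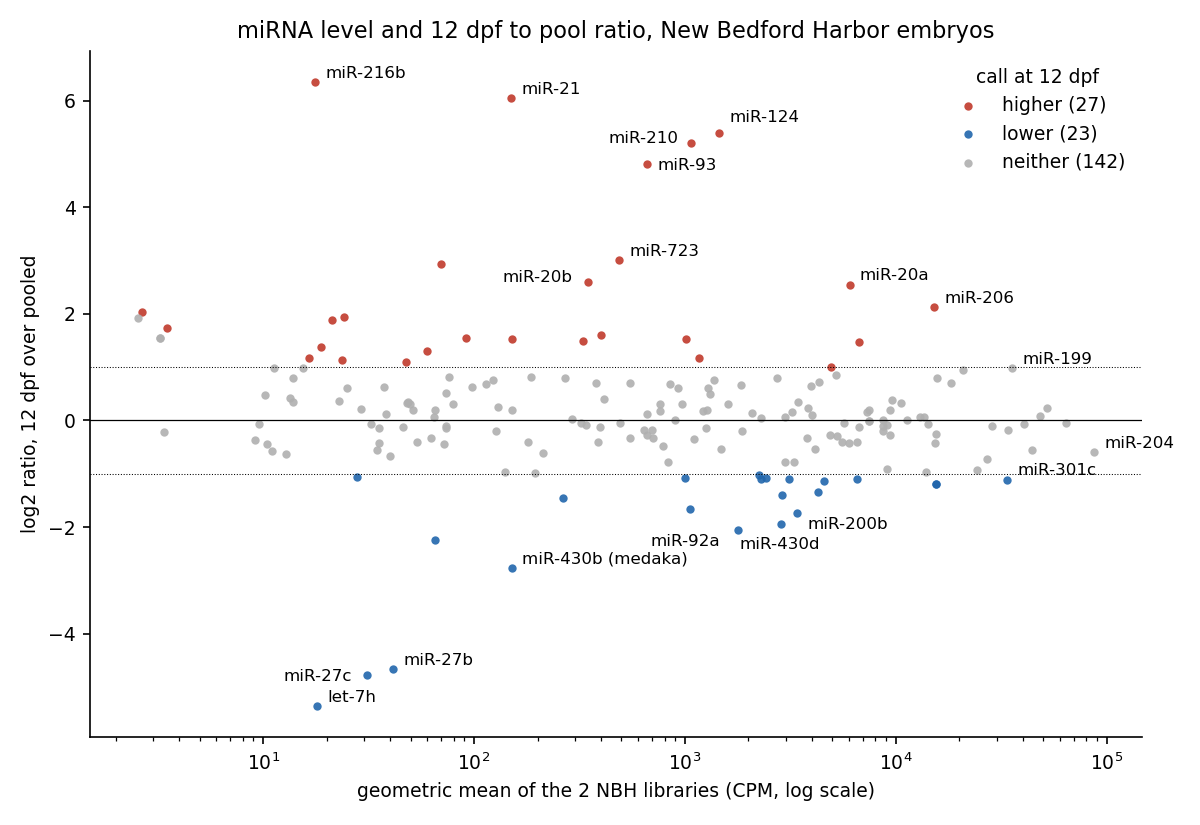
Level and ratio of the 192 miRNAs in NBH embryos. The x axis is the geometric mean of the 2 libraries (CPM, log scale), the y axis the log2 ratio of 12 dpf over the pool, and dotted lines mark 2-fold. The miRNAs called higher (27) reach 6.35 and those called lower (23) reach -5.36, while the most abundant stay near the middle.

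Of the 10 most abundant miRNAs only miR-301c was called by all reads, and identical reads did not call it again (-0.55). miR-204, a miRNA of the eye and its pigmented epithelium, stood first in both libraries, at 70843 CPM at 12 dpf and 106857 CPM in the pool, and its ratio of -0.59 missed 2-fold. It also had the largest loss in level, a difference of -36014 CPM. The next largest losses were those of miR-301c, 22903 CPM at 12 dpf against 49388 CPM in the pool, and of the skin miRNA miR-203a, 36383 against 53807 CPM. The largest gains belonged to miR-199, a miRNA of connective tissue, and to miR-206, a miRNA of skeletal muscle. miR-199 had 50273 CPM at 12 dpf and 25257 CPM in the pool, a ratio of 0.99 that just missed the call in all reads and passed it in identical reads (1.29). The median ratio over all miRNAs was 0.06 by all reads and 0.27 by identical reads. miR-19a, miR-20a and miR-124 completed the 5 largest gains, and miR-130b and miR-10b the 5 largest losses. The loss of miR-10b was not borne out by identical reads, which called it higher (1.37). Those were only 3.61% of its reads at 12 dpf and 0.931% in the pool.

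Muscle miRNAs were higher as a sum, through miR-206. The 6 measured entries of striated muscle summed to 58895 CPM at 12 dpf and 25345 CPM in the pool, a ratio of 1.22. Of these, 1 was called higher, 1 lower and 4 neither, with a median of 0.42 against 0.06 over all miRNAs; 1 call each way is near the 14.1% and 12.0% of all miRNAs. miR-206, which acts in differentiation of skeletal muscle and at the nerve-muscle junction, had 70720 counts at 12 dpf and 11817 in the pool, a ratio of 2.13 (interval 2.10 to 2.16). Its identical reads gave 2.47. Of its counts, 4257 at 12 dpf and 441 in the pool were deposited as unique matches. miR-1, of heart and skeletal muscle, had 46057 and 19399 counts, a ratio of 0.80 that missed the call, so the shared seed summed to 116777 counts at 12 dpf and 31216 in the pool (1.45, called higher). miR-499, encoded within a myosin gene of heart and slow muscle, was the member called lower, with 357 counts at 12 dpf and 719 in the pool (-1.46). In whole embryos, fewer cells of a type and less RNA per cell cannot be told apart.

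Among miRNAs of the nervous system, miR-124 stood apart. miR-124, a miRNA of differentiated neurons in vertebrates, had 21133 counts at 12 dpf and 365 in the pool, a ratio of 5.40 (5.25 to 5.56). Identical reads gave 4157 and 118, a ratio of 4.82. The deposited column of unique matches held only 106 and 13 of its counts. The whole list of 17 did not follow it: 3 were called higher, 2 lower and 12 neither, close to the 14.1% and 12.0% of all miRNAs, and its median was 0.17. Its sum was nearly level, at 65602 CPM at 12 dpf and 62697 CPM in the pool. miR-9, which is expressed in neural progenitors, was called lower with 4767 counts at 12 dpf and 7449 in the pool (-1.10), as was miR-7a (-1.35). The entry miR-7, shorter than miR-7a at its 3′ end and otherwise alike, had 1805 and 1162 counts and was not called (0.18). Members with high counts such as miR-128 (0.07), miR-138 (0.07) and miR-218a (-0.25) lay near equality. The other 2 calls, miR-153c (1.17) and miR-137 (zebrafish) (1.14), came from entries with fewer than 100 counts in both libraries, and the Tetraodon entry of miR-137, with 2538 and 1225 counts, was at 0.60.

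Among sensory and eye entries only 1 was called by all reads, where 26.0% of all miRNAs were called in either direction. In the cluster of hair cells and photoreceptors (miR-96, miR-182 and miR-183), 0 of 4 entries were called and the median was 0.40. Identical reads called 1 of them higher, miR-182 (zebrafish 5p), at 3.44. The lens and cornea miRNA miR-184 had 2 entries, the zebrafish one 1 base longer than the Tetraodon one and otherwise alike. The zebrafish entry was called higher, with 3837 counts at 12 dpf and 976 in the pool (1.52), and again by identical reads (1.85). The shorter entry had 3031 and 1941 (0.19). In the deposited column of unique matches the zebrafish entry had 0 counts in both libraries and the Tetraodon entry all of its counts. Low values there were not confined to such pairs. miR-143 had 0 unique matches of 1064 counts at 12 dpf and 586 in the pool, and miR-199 had 87 of 112454 and 13 of 41303. A 0 in this column thus does not show which entries, if any, share reads.

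Of the pancreas list, both miR-216 entries were called higher and the other 2 were not. Of all miRNAs, 14.1% were called higher. miR-216a and miR-216b lie together with miR-217 in vertebrate genomes and mark the exocrine pancreas. miR-216b had 381 counts at 12 dpf and 3 in the pool, a ratio of 6.35 (4.98 to 8.82), the highest of all 192. Its identical reads were 296 and 1 (7.37). miR-216a (Tetraodon), its close relative, had 430 counts at 12 dpf and 41 in the pool (2.93, 2.47 to 3.44). From miR-216a (Tetraodon) to miR-216b the listed bases change by A1T, A8T and T11A (the base of miR-216a first, positions counted from 1 at the 5′ end), so the seeds differ at 1 place. miR-217 had 1489 and 1513 counts (-0.47), and miR-375, a miRNA of endocrine islet cells, 226 and 321 (-0.96). The list's median was 1.23 and the ratio of its summed levels -0.02, of opposite sign, since miR-217 holds most of the counts.

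miR-210 and miR-21 had the next widest margins with miR-124. miR-210, a miRNA induced by low oxygen through the hypoxia-inducible factor, had 14547 counts at 12 dpf and 289 in the pool, a ratio of 5.20 (5.03 to 5.37). Identical reads gave it 6.22, from 5991 and 64. miR-21, which is raised in growing and injured tissue in mammals, had 2744 counts at 12 dpf and 30 in the pool, a ratio of 6.04 (5.55 to 6.63). Its identical reads were fewer, 174 and 2 (5.84). Each was called, and in identical reads each was called again. miR-34, a target of the tumour suppressor p53 and the other measured member of the growth and injury list, was at 0.11.

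The miR-17-92 clusters, polycistrons tied to cell proliferation, were divided by seed and by member. Of 15 measured, 5 were called higher, 3 lower and 7 neither, beside 14.1% higher and 12.0% lower over all miRNAs, with a median of 0.09. The miR-17 seed summed to 58949 counts at 12 dpf and 16661 in the pool (1.37). Within it miR-20a had 32659 and 4068 counts (2.55, 2.51 to 2.60), miR-20b 1902 and 230 (2.59, 2.40 to 2.80) and miR-93 7839 and 204 (4.81, 4.61 to 5.02). Identical reads called miR-20a again and gave miR-20b and miR-93 the same direction without a call. miR-17a, with the same seed, was at equality, with 16549 and 12159 counts (-0.01). The seed of miR-25 and miR-92 went the other way, at 5753 counts at 12 dpf and 11601 in the pool (-1.46): miR-92a had 1958 and 5922 counts (-2.05) and miR-25 3516 and 5455 (-1.09). Identical reads called miR-92a again (-2.28) but not miR-25 (-0.45). The miR-18 entries were split, miR-18b called higher (92 and 18 counts, 1.88) and miR-18c lower (3735 and 5754, -1.08). The call of miR-18c was lost with total counts. miR-363, which shares the seed of miR-92, was called higher on 13 counts at 12 dpf and 2 in the pool. miR-19a (0.94) and miR-19b (0.09), the most abundant of the clusters, were not called.

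Connective tissue entries held 68233 CPM at 12 dpf and 36495 CPM in the pool. miR-214, which is transcribed with miR-199 from the same antisense transcript in vertebrates, was called higher with 24892 counts at 12 dpf and 6554 in the pool (1.47). Its identical reads, at 0.99, just missed the call. With miR-199 just under 2-fold, the other 3 members of the list, the cartilage miRNA miR-140 (-0.05) and the collagen regulators miR-29a (-0.28) and miR-29b (-0.18), were near equality. The list's sum was thus 0.90 while its median was -0.05, of opposite sign.

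A fish entry, miR-723, came sixth among the highest ratios, with 3091 counts at 12 dpf and 281 in the pool (3.01, 2.83 to 3.19). None of its reads in either library was identical to the listed sequence, so its name rests on reads that differ from it. Of the 11 fish entries numbered miR-723 to miR-737, 2 were called higher, 0 lower and 9 neither (median 0.20). This is near the 14.1% higher and 12.0% lower of all miRNAs. The second call, miR-733, rests on 15 counts at 12 dpf and 3 in the pool. With 28 counts in SC at 12 dpf and 2 in the SC pool, it passed the filter only through the 12 dpf libraries, where it is high. Outside the lists, miR-190 (1.61), miR-187 (1.54), miR-2184 (1.10), miR-135b (1.01) and miR-460 (zebrafish 5p) were also called higher, of which only miR-460 was called again by identical reads (2.16). With DESeq2 size factors the calls of miR-2184, miR-135b and miR-733 were lost.

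Entries of miR-430 were lower at 12 dpf across the family. All 7 measured entries lay below 0, 5 of them called lower and 0 higher, where 12.0% of all miRNAs were called lower. The median was -1.66, and the sum 2202 CPM at 12 dpf and 8120 CPM in the pool (-1.88). miR-430d, the most abundant, had 3270 counts at 12 dpf and 9167 in the pool (-1.94). miR-430a (zebrafish) had 1322 and 3060 counts (-1.66), miR-430b (medaka) 129 and 643 (-2.76) and miR-430c (medaka) 67 and 234 (-2.25). The 2 entries with enough identical reads, miR-430d (-1.01) and miR-430a (zebrafish) (-1.16), were called lower by those reads as well, by a smaller margin. miR-430b and miR-430c (medaka) had 0 identical reads in both libraries. Apart from miR-430a (medaka), the 7 entries had 0 unique matches in both libraries, so whether and how they share reads is uncertain.

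miR-27b and miR-27c had few counts at 12 dpf, while the other 6 entries of their clusters were not called by all reads. Of all miRNAs, 12.0% were called lower by all reads. miR-27, studied in vessels and fat of mammals, is made from the same transcripts as miR-23 and miR-24. miR-27b had 18 counts at 12 dpf and 345 in the pool (-4.67, -5.48 to -4.03), and miR-27c 13 and 270 (-4.77, -5.76 to -4.03). Against miR-27a, the listed changes are C19T and T22A in miR-27b, C11T and C19T in miR-27c, and C19A, C21T and T22G in miR-27e, all outside the seed. miR-27a had 123 counts at 12 dpf and 71 in the pool (0.34), and miR-27e 751 and 723 (-0.40). miR-23a, with 18635 and 14732 counts (-0.11), miR-23b (-0.09) and miR-24 (-0.53) were not called. Identical reads kept the direction of both low entries: miR-27c had 2 at 12 dpf and 138 in the pool (-6.07), and miR-27b had 0 and 12. By identical reads miR-24 was called lower too, with 664 and 1635 (-1.61), and 3 of the 6 entries with enough such reads were called lower (median -1.27). Over all miRNAs, identical reads called 17 of 149 lower (11.4%), with a median of 0.27. Nearly all counts of both low entries were unique matches, 18 of 18 at 12 dpf and 341 of 345 in the pool for miR-27b, and 13 of 13 and 269 of 270 for miR-27c.

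let-7h had the lowest ratio of all. The let-7 family promotes the passage from earlier to later developmental states, from nematodes to mammals. let-7h had 6 counts at 12 dpf and 197 in the pool (-5.36, -6.95 to -4.34), of which 4 and 157 were identical and 6 and 197, that is all, were unique matches. It differs from let-7a by G11A, A17G and A19T. let-7a itself had 10636 and 9533 counts (-0.29). let-7g was also called lower (3509 and 5226 counts, -1.03, a call lost with scaling by total counts) and let-7d higher (3910 and 1271, 1.17), and the 10 let-7 entries summed to 23110 counts at 12 dpf and 19565 in the pool (-0.21). Of the wider list of developmental timing, with miR-125, miR-99 and miR-100, 12 of 15 were not called and the median was -0.17. Over all miRNAs 142 of 192 were not called and the median was 0.06.

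Some epithelial, gut and blood entries were called, beside 26.0% of all miRNAs called in either direction. miR-200b, which keeps cells in the epithelial state, was called lower with 4162 counts at 12 dpf and 10121 in the pool (-1.73), and miR-200c, with the same seed, higher with 68 and 19 (1.37). The skin and epithelial list of 9 had 1 call each way and a median of -0.01, and miR-205, a miRNA of stratified epithelia, was at -0.01. In the gut list miR-192 was called lower (9974 and 15674 counts, -1.10) and miR-194 was not (-0.41). The liver miRNA miR-122 was at -0.20. miR-451 and miR-144, which lie in 1 cluster active in red blood cells, were at 0.71 and 0.63, above the median of all miRNAs but not called. The vessel miRNA miR-126 was at -0.91 with 14735 counts at 12 dpf and 20291 in the pool. Of 5 white blood cell entries 1 was called lower, miR-150 of lymphocytes (-1.13), with 6 identical reads in each library.

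Entries encoded between Hox genes, which pattern the body axis, had a median of -0.46, with 6 of 8 below 0. Of the 8, 1 was called lower and 0 higher, near the 12.0% of all miRNAs called lower. miR-196a was the one called (1544 counts at 12 dpf and 2366 in the pool, -1.07). That call was lost with total counts and in identical reads (-0.95). miR-10d (zebrafish) (-0.97) and miR-10b (-0.72) came next among abundant members, but identical reads called miR-10b higher (1.37). The miR-15 and miR-16 family, which restrains the cell cycle, had a median of 0.19 but a sum of -1.04, of opposite sign, because miR-16b held most of its counts and was called lower (22962 and 38244 counts, -1.19). The miR-130 and miR-301 family was split in the same manner. Its median was 0.56 and its sum -0.51, with miR-454a (1.95), miR-301a (1.53) and miR-301b (1.31) called higher and the abundant miR-301c lower (51230 and 80765 counts, -1.11). The 3 called higher had fewer than 10 identical reads in each library. miR-181b was called lower (-1.19) but not by its 11 and 18 identical reads (-0.99), and miR-181a was not called (0.24). Of the paired miR-221 and miR-222, miR-221 was called lower (-1.39) while miR-222 was at 0.80. The miR-30 family (5 entries, median -0.27), the smooth muscle pair miR-143 and miR-145 (0.41 and 0.01) and the immune pair miR-462 and miR-731 (0.26 and -0.15) had 0 calls. Of 41 seeds with 2 or more entries, 5 held members called in both directions: those of let-7, miR-18, miR-200, miR-25 with miR-92, and miR-130 with miR-301.

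**Figure D2:**
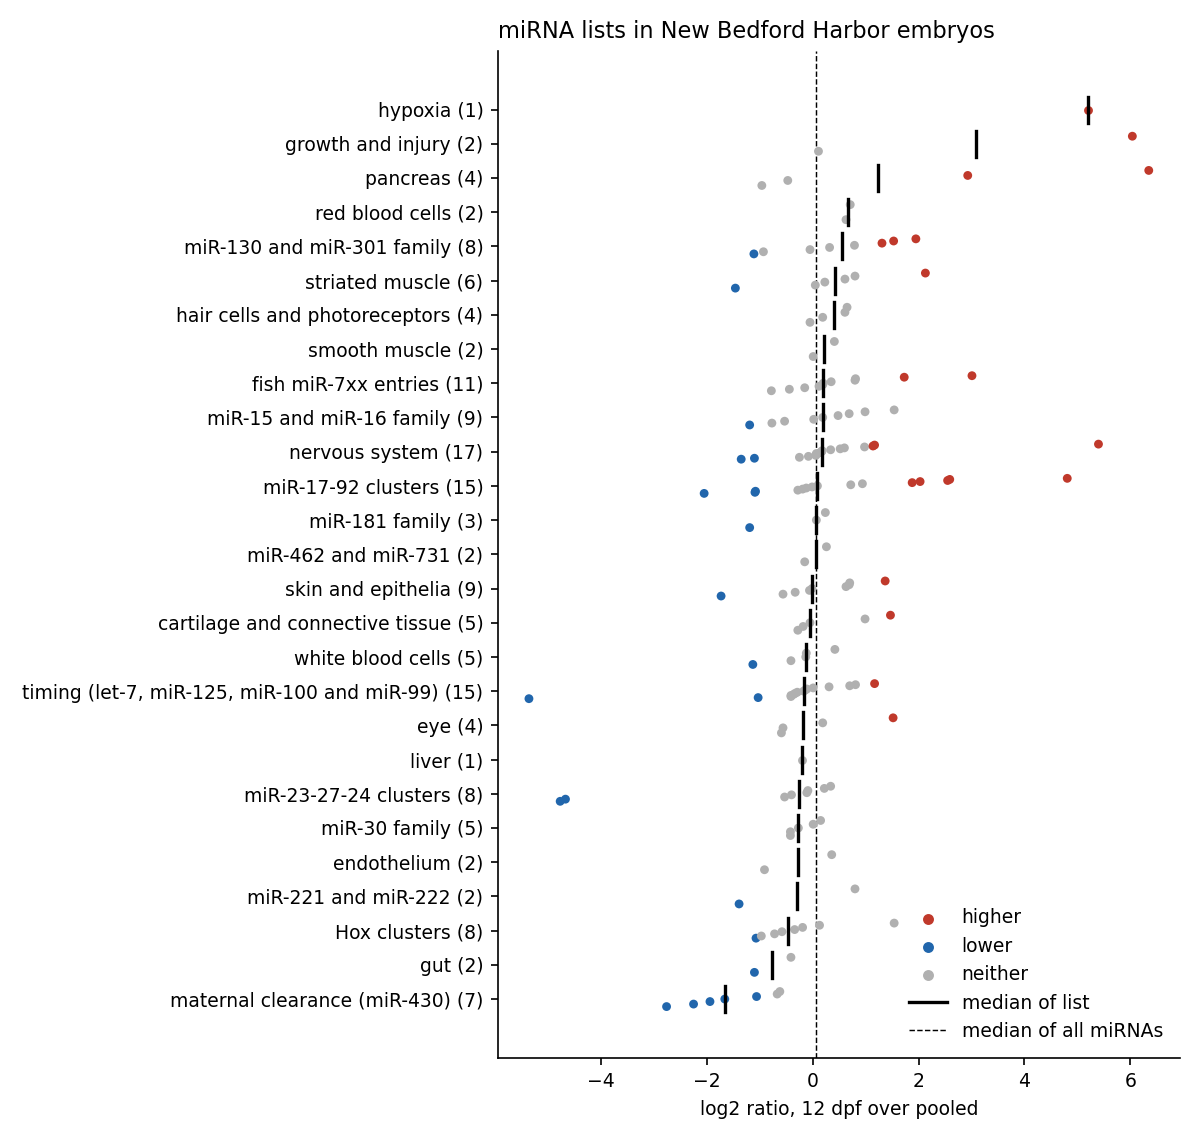
Log2 ratio of 12 dpf over the pool for each entry of 27 miRNA lists in NBH embryos, 1 point per entry, with the number of entries in brackets. Short bars are list medians and the dashed line is the median of all 192 miRNAs (0.06). Of the lists with 5 entries or more, miR-430 has the lowest median (-1.66) and all 7 of its points lie below 0.

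Since the pool contains day 12, the size of a ratio has a limit set by the design. If each of the 15 days gave an equal share of the pool's reads, no miRNA could hold more than 15 times its share of the pool at 12 dpf, a log2 ratio of 3.91. The true shares of the days are not in the labels. Of 192 miRNAs 5 (2.60%) were past that limit, with their whole interval. The share of total counts at 12 dpf was 98.3 times that in the pool for miR-216b (lower bound 33.4), 70.8 times for miR-21 (49.5) and 44.8 times for miR-124 (40.4). miR-210 stood at 39.0 times (34.7) and miR-93 at 29.7 times (25.9). By identical reads 5 were past it as well, miR-124, miR-21, miR-210, miR-216b and, in place of miR-93, miR-20a. For ratios below 0 the design sets no such limit.

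Of the 50 called miRNAs, 38 had at least 10 identical reads in 1 of the 2 libraries, and 37 of those kept their direction. Among the 27 called higher, 12 were called again, 7 kept the direction without a call and 8 had too few identical reads. Among the 23 called lower the numbers were 14, 4 and 4, and 1, miR-18c, turned to 0.27. Its interval, -0.43 to 0.99 on 45 identical reads at 12 dpf and 30 in the pool, includes 0. No miRNA was called one way in all reads and the other way in identical reads. The call of miR-93 was lost, at 0.99 (92 identical reads at 12 dpf and 37 in the pool), as was that of miR-20b at 0.62 (29 and 15). Identical reads called 25 of 149 higher (16.8%) and 17 lower (11.4%), 28.2% in all, of which 13 and 3 had not been called by all reads. The 2 sets of calls have different baselines, since the median ratio was 0.27 by identical reads and 0.06 by all reads. miR-338, with 17.8% identical reads in both libraries, still stood 0.14 higher by identical reads.

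**Figure D3:**
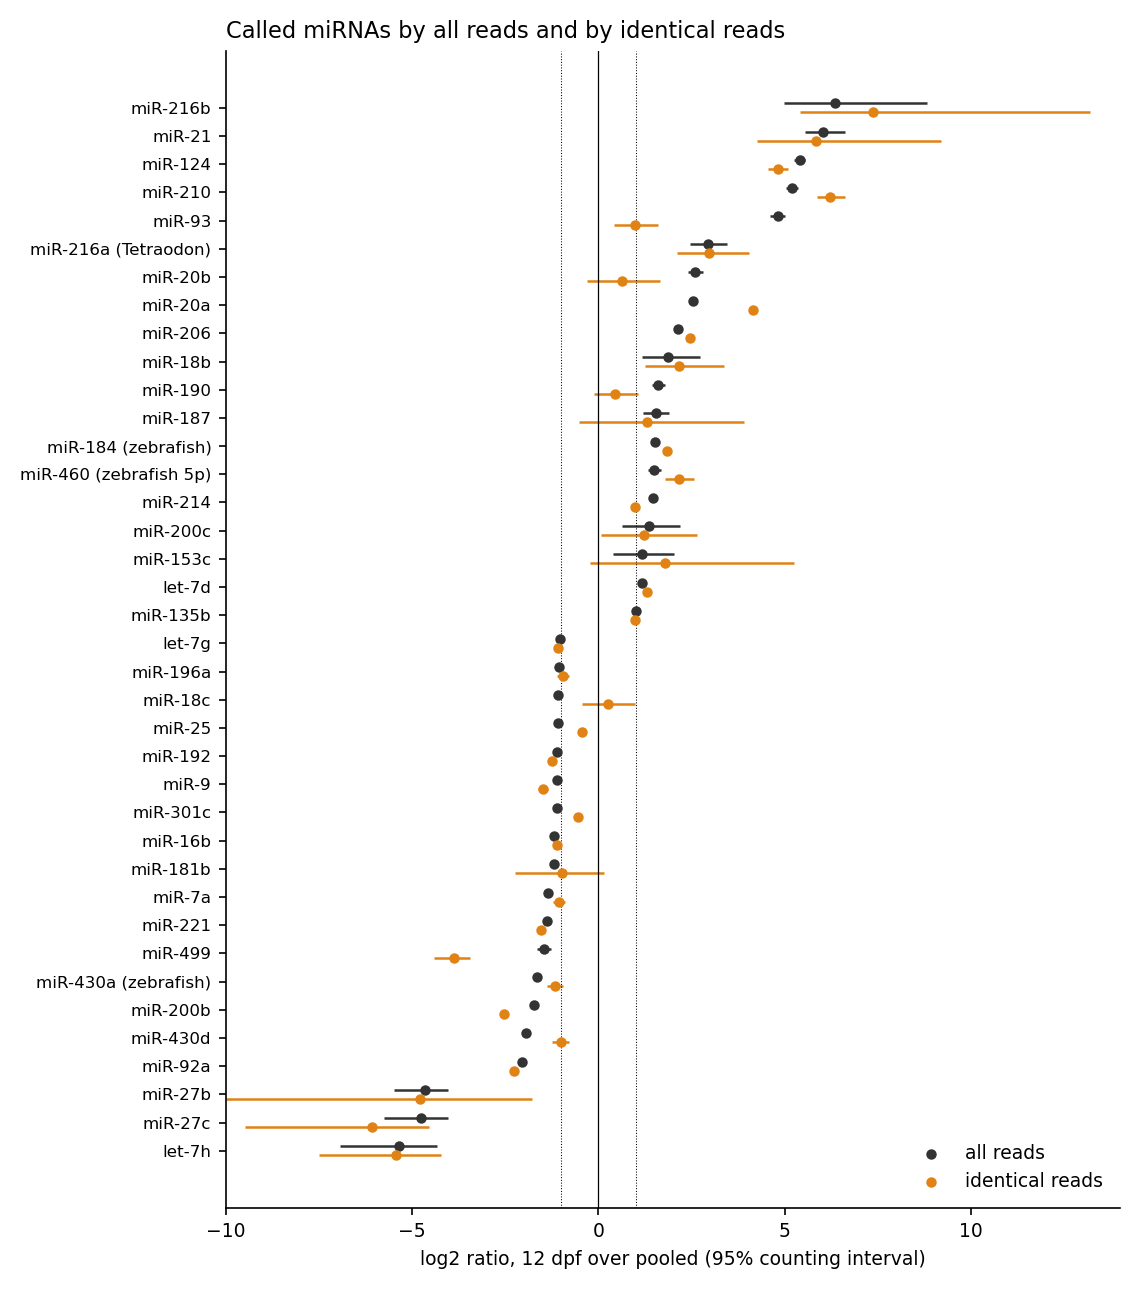
Log2 ratio of 12 dpf over the pool for the 38 called miRNAs with enough identical reads, by all reads (dark) and by identical reads (orange), with 95% counting intervals and dotted lines at 2-fold. miR-18c is the only 1 of them whose orange point is across 0, with an interval that includes 0, and miR-93 and miR-20b move toward 0. The point of miR-27b rests on 0 identical reads at 12 dpf and its interval runs off the axis.

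For a few miRNAs the form of the reads differed between the libraries, with or without a difference in their number. This was examined after the ratios had been seen, over the 143 miRNAs with at least 100 counts in both libraries. The share of identical reads differed by less than 10 percentage points for 115 of them, with a median difference of 0.0 points, and by 20 points or more for 8. miR-20a had 72.8% identical reads at 12 dpf (exact interval 72.3 to 73.3) and 26.6% in the pool (25.3 to 28.0). Its identical reads therefore stood at 4.14 and its other reads at 1.12. Other reads were scaled with the library sizes from all reads, and identical reads with sizes of their own. For miR-338, with the same share of identical reads in both libraries, this put identical reads (0.46) above the others (0.32). miR-182 (zebrafish 5p) had 26.0% and 4.13%, so that an entry near equality in its other reads (0.28) was at 3.44 in identical reads. The muscle miRNA miR-133a was alike in this, with 10.9% identical reads at 12 dpf and 2.43% in the pool, at 2.52 in identical reads and 0.10 in the others.

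In the other direction, miR-499 had 11.2% identical reads at 12 dpf (8.13 to 14.9) and 67.2% in the pool (63.6 to 70.6). Its lower level lay wholly in identical reads (40 and 483, -3.89), while its other reads, 317 at 12 dpf and 236 in the pool, were at -0.03. miR-22a had 43.7% identical reads at 12 dpf and 76.3% in the pool, with identical reads at -1.45 and other reads at 0.46. miR-19a had 55.8% and 79.0%, and its other reads alone were at 2.01. miR-93 had 1.17% identical reads at 12 dpf and 18.1% in the pool, so its high ratio came almost wholly from reads that differ from the listed sequence. Such reads may differ by length or by mismatches, or stem from a relative, and the counts do not separate these.

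**Figure D4:**
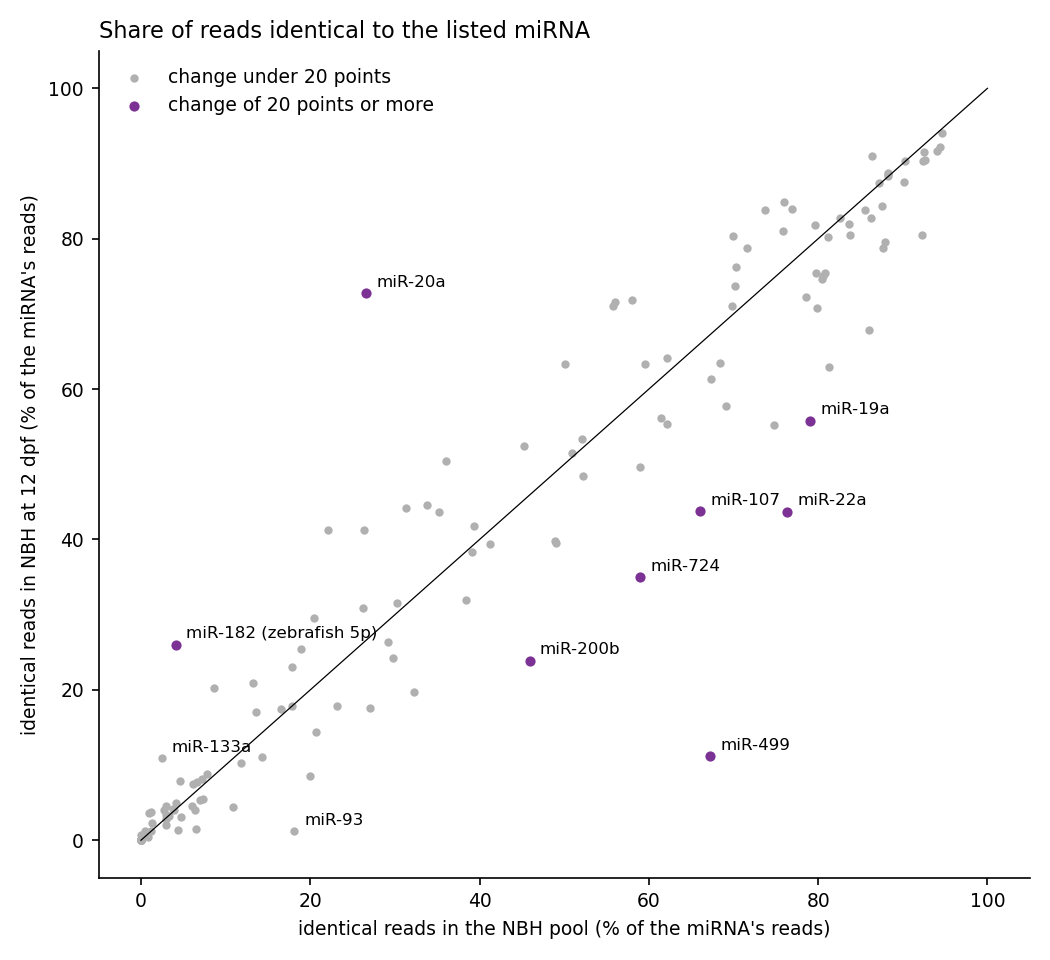
Share of reads identical to the listed sequence, NBH pool on the x axis and NBH at 12 dpf on the y axis (both in % of the miRNA's reads), for the 143 miRNAs with at least 100 counts in both libraries. The line marks equal shares. miR-20a (72.8% at 12 dpf and 26.6% in the pool) lies farthest above it and miR-499 (11.2% and 67.2%) farthest below.

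Beside the SC libraries, several of the widest NBH ratios went with an NBH library that lay far from the remaining 3, and for miR-216b both NBH libraries did. The 160 miRNAs with at least 100 counts in 1 NBH library were screened for this. The remaining 3 always include the other NBH library, so the distance is not independent of the NBH ratio. For miR-124 (5.40) and miR-210 (5.20) the 2 are equal in size. In the NBH pool miR-21, miR-210, miR-216b, miR-723 and miR-93 were lower, by 8-fold or more, than the median of the remaining 3 libraries. miR-210 had 14547 counts in NBH at 12 dpf and 289 in the NBH pool, with 17352 in SC at 12 dpf and 5992 in the SC pool, so the NBH pool was the low one. miR-21 had the same form, with 5030 counts in SC at 12 dpf and 2602 in the SC pool. NBH at 12 dpf lay at least 8-fold above that median for miR-124 and miR-216b. miR-124 had 455 counts in SC at 12 dpf and 2944 in the SC pool, and its SC ratio was -3.24. NBH at 12 dpf lay as far below for let-7h, miR-27b and miR-27c, of which miR-27b had 955 and 327 counts in the 2 SC libraries and miR-27c 1490 and 416. miR-206, miR-430d and miR-92a, whose NBH ratios were under 8-fold, were not among these. Their SC ratios were 3.24, -2.84 and -2.26 beside 2.13, -1.94 and -2.05 in NBH. Only the NBH libraries were screened in this way, and such distances were not particular to them. SC at 12 dpf also lay more than 8-fold below the median of the remaining 3 libraries for some miRNAs, such as miR-126 (-6.66 on the log2 scale) and miR-196a (-5.34).

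Across miRNAs the 2 NBH libraries had a Spearman rho of 0.936 and the 2 SC libraries 0.881. The SC stage ratio had 26.7% of 191 miRNAs called higher and 29.8% lower, 56.5% in all. It shares no library with that of NBH, apart from the filter and the scaling, which used every library. Called higher in both were 11, which is 40.7% of the NBH calls and 21.6% of the SC calls, and called lower in both 13, 56.5% and 22.8%. The higher ones included let-7d, miR-206, miR-301a and miR-216b. The lower ones included 5 entries of miR-430, with miR-92a, let-7h, miR-200b and miR-499. Calls in opposite directions numbered 10. They were 8 of the 27 called higher in NBH (29.6%) and 2 of the 23 called lower (8.7%), beside 29.8% and 26.7% of all in SC. The difference between populations was not tested, since each ratio has 1 library a side.

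**Figure D5:**
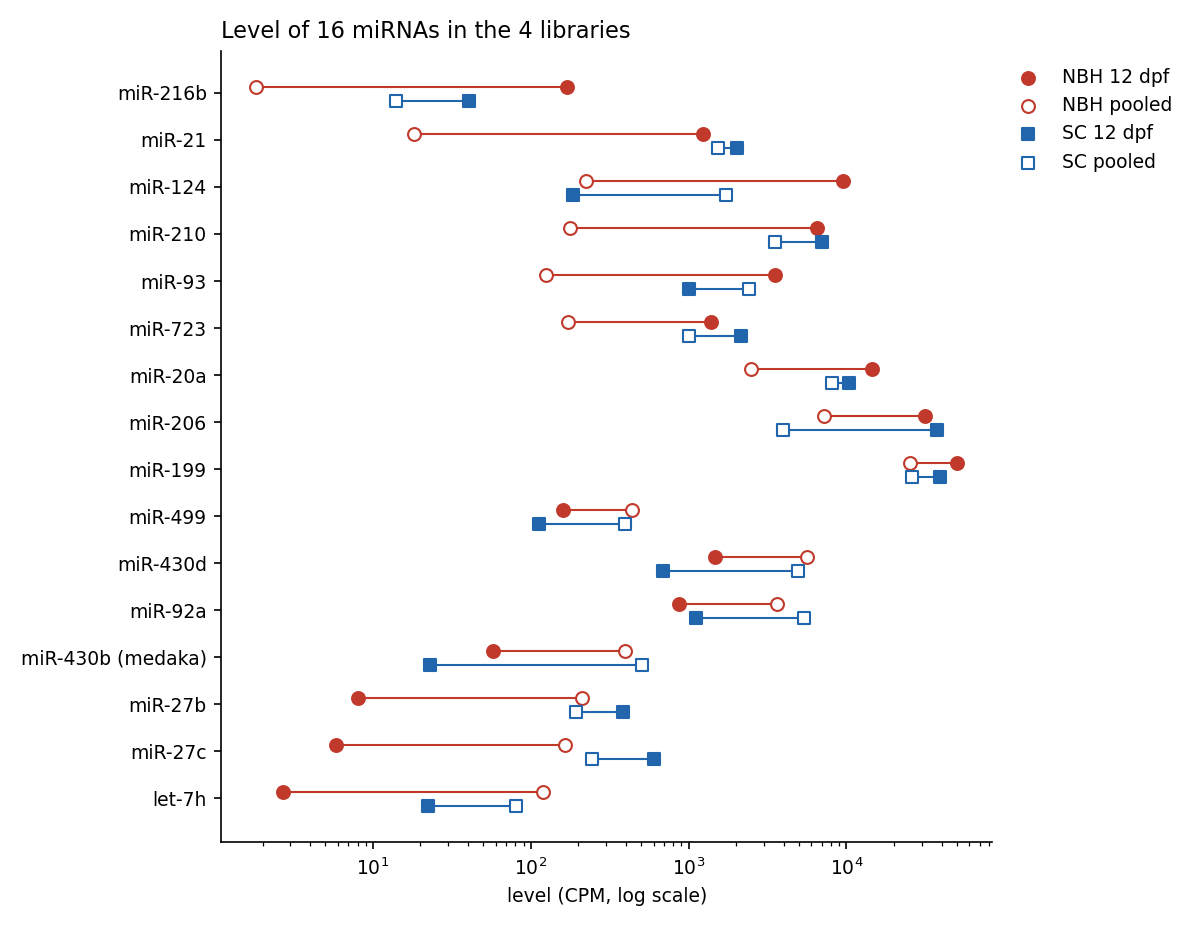
Level (CPM, log scale) of 16 miRNAs in NBH at 12 dpf (filled circles), the NBH pool (open circles), SC at 12 dpf (filled squares) and the SC pool (open squares), with a line joining the stages of a population. The NBH pool is the lowest point for miR-216b, miR-21, miR-210, miR-93 and miR-723, and by less for miR-20a and miR-199. NBH at 12 dpf is the lowest for let-7h, miR-27b and miR-27c, and by less for miR-92a.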

How the data were processed

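Per the labels' protocols, total RNA with an integrity number above 9.8 went into small RNA libraries (SREK kit), which were sequenced on the SOLiD V3 platform. For each library the authors deposited raw read counts per mature miRNA, and, in other columns, the counts of exact matches and of unique matches, per the file headers. Aligner, allowed mismatches and release of the reference were not given in the sources used here. Hairpin positions were not used.

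Tables were joined by sequence; miR-27c and miR-92a of the SC pool were joined by name. The filter kept entries that reached 10 counts in 2 or more of the 4 libraries. TMM factors were estimated over all 4 libraries with edgeR 4.0.16 in R 4.3.3. To each count 0.5 was added in proportion to library size before log2 ratios were taken, with the exact conditional binomial (Clopper-Pearson) 95% interval; reads without molecular identifiers are not independent molecules. Counts of an unlisted entry were set to 0. The miRNAs named are members of 27 lists by tissue or role, the 10 highest and 10 lowest ratios among those with at least 100 counts in 1 NBH library, the 10 of highest mean level, the 5 largest gains and losses in CPM, and those past the 15-fold limit. Other miRNAs named were picked after their values were seen. Members and lists were chosen with earlier results of these data known. Alternatives were other scalings (total counts, DESeq2 1.42.0 size factors), filters, pseudocounts, thresholds, identical reads and sums by seed. Calculations ran in Python 3.11.15 with scipy 1.17.1, pandas 2.3.3 and numpy 2.4.6, and figures were drawn with matplotlib 3.10.9.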

Additional observations from a re-analysis of the deposited data

Results flagged for a closer look

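For 6 miRNAs with at least 100 counts, the ratio of 12 dpf over the pool was called in opposite directions in the 2 populations. These were 4 of the 21 called higher in NBH (19.0%) and 2 of the 22 called lower (9.09%). Of the 160 miRNAs with that many counts in 1 NBH library, 41 were called lower in SC and 41 higher. Over all 191 the shares were 29.8% and 26.7%, so the number of opposite calls does not stand out. The difference was not tested, since each ratio has 1 library a side. No NBH library enters the SC ratio, apart from the filter and the scaling. miR-124, a neuronal miRNA, stood at 5.40 in NBH and -3.24 in SC, a difference of 8.64 on the log2 scale. miR-93 stood at 4.81 in NBH and -1.26 in SC (difference 6.07), and miR-20b, with the same seed, at 2.59 and -1.60 (4.19); neither was called by identical reads in NBH. Identical reads gave miR-124 the same 2 calls, at 4.82 in NBH and -3.38 in SC. miR-2184 stood at 1.10 in NBH and -4.20 in SC (5.30). Its NBH call was lost with DESeq2 size factors, and with 5 identical reads in each NBH library it had no identical-read ratio. In the other direction, miR-27b stood at -4.67 in NBH and 1.00 in SC (-5.67), and miR-27c at -4.77 in NBH and 1.30 in SC (-6.07). Identical reads gave miR-27c the same 2 calls (-6.07 in NBH and 1.38 in SC). The SC value is not a like check, since miR-27c of the SC pool was joined by name and not by sequence. miR-27b was called lower by identical reads in SC as well, at -1.86 (interval -3.22 to -0.77). That rests on 9 reads at 12 dpf and 24 in the pool, beside 0 and 12 in NBH.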

How the results depend on the processing

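No paired analysis was possible because each stage has 1 library, and no replicate could be left out for the same reason. Total counts ended the calls of let-7g, miR-18c, miR-196a and miR-430a (medaka), and DESeq2 size factors those of miR-135b, miR-2184, miR-363 and miR-733. No other scaling turned the sign of a called ratio of the miRNAs named; ratios near 0, such as those of miR-17a, miR-128 and miR-138, did turn. The counts of 27 called higher and 23 called lower, of 192 miRNAs, became 11 and 6 with a 4-fold threshold. With counts summed by seed the unit is the seed and not the miRNA, so those numbers are not alike. Of 103 seeds, 17 were called higher and 10 lower with TMM factors estimated anew on the sums. With the factors used elsewhere, seed sums gave 13 and 11 of the 103. The number of lists with a median above 0 was 14, against 16 by total counts, 11 by DESeq2 size factors and 14 by identical reads, in which the median of the miR-130 and miR-301 family was -0.25 in place of 0.56. The number of miRNAs past the 15-fold limit was 5 under each of the alternatives run for it (TMM scaling, DESeq2 size factors and identical reads), with miR-20a in place of miR-93 in identical reads. Identical reads kept 12 of the 27 higher calls and 14 of the 23 lower ones, and a miRNA with fewer than 10 identical reads in both libraries got no value there.

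Among miRNAs called by all reads or under the alternative, identical reads turned the sign of miR-10b (1.37), miR-16a (1.30) and miR-18c (0.27). The interval of miR-18c, -0.43 to 0.99, includes 0. Sums by seed, with their own factors, give a member the ratio of its relatives, and in the same sense turned let-7d (-0.16), miR-15a (zebrafish), miR-15b (zebrafish), miR-16c, miR-457a and miR-457b (-1.03 each), miR-17a (1.42), miR-18c (0.13), miR-200c and miR-429 (-1.15 each), miR-27a (-1.04), miR-301a, miR-301b and miR-454a (-0.46 each), miR-363 (-1.41) and miR-7 (-1.06). The calls of miR-363 and miR-733, on 2 and 3 counts in the pool, were lost with a 99% interval. At this depth 3 counts correspond to 1.30 CPM at 12 dpf and 1.68 CPM in the pool.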

Other observations

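Of the 13 miRNAs that identical reads alone called higher at 12 dpf, several belong to tissues described above. miR-135a, which is expressed in the developing vertebrate brain, had 1.58 in identical reads, on 4.07% of its reads at 12 dpf and 2.70% in the pool. miR-101a had 1.12, with 50.4% identical reads at 12 dpf and 36.0% in the pool, and miR-18a 1.19, with 63.3% and 50.1%. miR-219, a miRNA of myelinating cells in mammals and zebrafish, stood at 1.38 on 30 identical reads at 12 dpf and 9 in the pool; all its reads gave 0.06. Of the 3 called lower by identical reads alone, miR-24 stood at -1.61 on 664 identical reads at 12 dpf and 1635 in the pool.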
